A study of Mus musculus with 4 samples.

Results

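The cells described here were the *Igf1*/*Dlk1* stromal cells of the mouse testis at postnatal day 14 (P14), 1368 of the 22567 retained cells. They were selected by a rule on detected genes. A cell qualified when it had at least 1 UMI (a counted mRNA molecule) of at least 3 of the 6 genes *Adamts5*, *Nrk*, *Igf1*, *Plac8*, *Penk* and *Dlk1*, and more of these than of 6 fibroblast genes (*Sfrp1*, *Angptl7*, *Lum*, *Col9a2*, *Col6a3*, *Col5a2*) and of 6 peritubular myoid genes (*Tnnt2*, *Cyp26b1*, *Sct*, *Col4a3*, *Lamc3*, *Myh11*). It also held at most 1 UMI of *Cyp11a1*, a Leydig cell enzyme, and at most 1 UMI of the germ cell genes *Ddx4* and *Dazl* together. Each library gave 109 (control 1), 652 (control 2), 82 (*Sox17*-cKO 1) and 525 (*Sox17*-cKO 2) such cells. The mirrored rules gave 2020 *Lum*/*Sfrp1* fibroblasts and 2057 peritubular myoid cells, which serve as the comparison.

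The study asked what the loss of *Sox17*, a transcription factor gene of the rete testis epithelium, does to the testis. The tissue was the rete testis with the seminiferous tubules next to it, and the 2 libraries per genotype each pooled cells of 3 C57BL/6 pups. During dissociation the study discarded the supernatant that held interstitial cells, so the cells described here are those left after that step. In the *Sox17*-cKO pups (SF1Cre:Sox17flox/flox) the floxed alleles are recombined by a Cre driven by *Nr5a1* (SF1) sequences, which act in somatic cells of the gonad and not in the rete testis alone. The records give the controls as SF1Cre, whereas the study's methods describe them as floxed littermates without Cre. Each library is a pool, so the tests measure the spread between these 4 libraries and not between pups.

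Testicular stroma lies between and around the seminiferous tubules. It includes contractile peritubular myoid cells, collagen-producing fibroblasts, and interstitial mesenchymal cells among which precursors of the androgen-producing Leydig cells are found. *Pdgfra*, *Nr2f2* and *Tcf21* are known genes of such mesenchyme. IGF1 is a growth factor that acts on Leydig and Sertoli cells, and DLK1 is a membrane and secreted protein of the Notch ligand-like family whose imprinted gene is used in immature mesenchyme.

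The upstream sequences of both genes that give the cells their name are shown for orientation. Each is the 250 bases before the RefSeq transcript start (GRCm38.p6), 5′ to 3′ on the gene's own strand. The capitals mark a match to CCAAT, read on the opposite strand as ATTGG, in *Igf1* (chr10:87860861-87861110, + strand), and a match to TGACG in *Dlk1* (chr12:109452573-109452822, + strand).
Igf1: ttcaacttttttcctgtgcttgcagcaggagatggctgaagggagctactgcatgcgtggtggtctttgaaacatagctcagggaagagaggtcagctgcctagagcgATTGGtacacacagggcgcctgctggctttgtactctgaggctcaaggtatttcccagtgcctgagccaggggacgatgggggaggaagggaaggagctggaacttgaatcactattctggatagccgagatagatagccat
Dlk1: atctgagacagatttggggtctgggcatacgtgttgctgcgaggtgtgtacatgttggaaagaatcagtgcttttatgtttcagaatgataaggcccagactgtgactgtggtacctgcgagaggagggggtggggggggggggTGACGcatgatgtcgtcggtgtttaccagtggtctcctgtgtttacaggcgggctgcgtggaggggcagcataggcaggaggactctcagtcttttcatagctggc
Matches were sought on both strands. CCAAT occurred in 33.8% and TGACG in 17.8% of the 32851 promoters of this length, and neither window held TATAAA, which 12.4% of them hold. The *Igf1* window lies inside the GENCODE gene span, whose start is further upstream, and the *Dlk1* window ends next to the GENCODE start.

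Between 9388 and 13364 barcodes held 89969877 to 107203219 UMIs per library, and 5174 to 6135 cells per library had 1000 to 4500 detected genes. The stromal cells summed to 464168 and 4419309 UMIs in the controls (replicates 1 and 2) and to 438273 and 2886844 UMIs in *Sox17*-cKO. On the CPM scale (counts per 1e6 UMIs of the class in a library) 1 UMI was thus worth 2.15, 0.226, 2.28 and 0.346 CPM. Values of the replicate 1 libraries are therefore the coarser ones. The median cell had 3680, 5805, 4798 and 4996 UMIs, and no barcode was shared by stromal cells of different libraries, although pairs of libraries shared 20 to 43 of all their barcodes. *Sox17* had 0, 10, 0 and 0 UMIs in the stromal cells, in 10 cells of control 2. A count of 0 allows 6.46, 6.85 and 1.04 CPM in control 1, *Sox17*-cKO 1 and *Sox17*-cKO 2 (3 UMIs per library, counting error only). The labels were checked in the cells with at least 2 of *Pax8*, *Krt8* and *Cdh1*, genes of the rete testis epithelium (23, 51, 20 and 64 cells), in which *Sox17* stood at 405 and 296 CPM in the controls and at 57.7 and 30.1 CPM in *Sox17*-cKO.

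Among the genes of the rule, *Igf1*, *Adamts5* and *Nrk* were in most stromal cells of every library and *Dlk1* was in a minority of them in all but *Sox17*-cKO 2. *Igf1* (chromosome 10:87858265-87937042, + strand, GRCm38) was detected in 99.1%, 99.2%, 97.6% and 98.5% of the cells of control 1, control 2, *Sox17*-cKO 1 and *Sox17*-cKO 2. *Adamts5* (chromosome 16:85856173-85901828, − strand), which encodes an aggrecan-cleaving protease, was detected in 94.5%, 97.5%, 97.6% and 98.7%. *Nrk* (chromosome X:138914430-139010532, + strand), a kinase gene, was detected in 87.2%, 91.1%, 90.2% and 96.4%. The order among the remaining rule genes was *Penk*, *Plac8*, *Dlk1* over all cells. *Penk* (chromosome 4:4133531-4138819, − strand), the enkephalin precursor gene, was in 70.6%, 85.6%, 69.5% and 78.7%. *Plac8* (chromosome 5:100553725-100572245, − strand) was in 46.8%, 71.9%, 69.5% and 75.6%. *Dlk1* (chromosome 12:109452823-109463336, + strand) was in 27.5%, 46.5%, 28.0% and 57.9%, the replicate 2 libraries lying above the replicate 1 libraries. These detection rates follow from the rule and carry no test.

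The levels of these genes, as CPM over the summed UMIs of the class, were as follows in the order control 1, control 2, *Sox17*-cKO 1, *Sox17*-cKO 2. *Igf1* stood at 2475, 2382, 1969 and 2147 CPM, *Adamts5* at 1459, 1888, 1451 and 2153 CPM, and *Nrk* at 687, 863, 899 and 1113 CPM. *Plac8* stood at 241, 537, 653 and 681 CPM, and *Penk* at 388, 537, 292 and 430 CPM. *Dlk1* stood at 213, 611, 160 and 669 CPM, both replicate 2 libraries lying above both replicate 1 libraries. The fibroblasts held 958 ± 239 CPM of *Igf1* (SD, n = 4 libraries), 264 ± 74.7 of *Adamts5* and 1.72 ± 1.38 of *Plac8*, whereas the myoid cells held 728 ± 86.4, 1091 ± 137 and 104 ± 29.1 CPM. The myoid cells came closer to the stromal cells in *Adamts5* than in *Igf1*. *Dlk1* was nearly absent from myoid cells, at 2.87 ± 1.52 CPM, but its levels in the fibroblasts, 101 ± 69.4 CPM, overlapped those of the stromal cells across libraries.

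**Figure D1:**
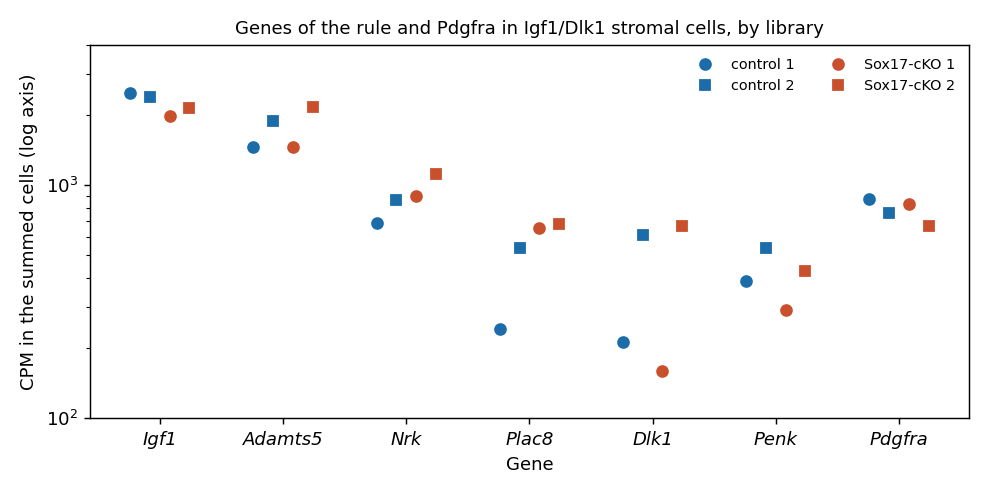
Level in CPM (log axis) of the 6 genes that chose the stromal cells and of *Pdgfra*, with 1 point per library (circles replicate 1, squares replicate 2, blue control, red *Sox17*-cKO). *Igf1* lies between 1969 and 2475 CPM in the 4 libraries, whereas the *Dlk1* points of replicate 2 (611 and 669) lie apart from those of replicate 1 (213 and 160).

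The name was checked against *Pdgfra*, the receptor gene that the rule did not use. *Pdgfra* (chromosome 5:75152292-75198215, + strand) stood at 870, 762, 833 and 669 CPM in the stromal cells. The mean of 784 ± 88.5 CPM compares with 304 ± 32.6 CPM in fibroblasts and 573 ± 105 CPM in myoid cells. The classes were chosen by detected genes, so differences between them are given here and below as descriptions, with no test. Of the other mesenchymal genes that the rule did not use, *Nr2f2* (543 against 725 CPM) and *Tcf21* (546 against 676 CPM) were lower in mean than in the myoid cells, so these markers did not set the stromal cells apart as one. *Dlk1* was detected in a minority of the cells in control 1, control 2 and *Sox17*-cKO 1. The interstitial position was not measured.

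Markers of other cell types were present to different extents. The sums of 7 Leydig cell markers (including *Cyp11a1*, which the rule limits) were 43.1, 141, 70.7 and 90.1 CPM, with 25 stromal cells (1.83%) holding at least 3 of them. Germ cell markers (7 genes, including *Ddx4* and *Dazl*, which the rule limits) summed to 416, 106.8, 415 and 245 CPM and Sertoli cell markers (8 genes) to 1329, 939, 1604 and 1167 CPM, and 104 and 538 of the stromal cells held at least 3 of the germ cell and of the Sertoli cell markers. Both lists were lower in control 2 than in the other libraries. The pooled counts come mostly from the replicate 2 libraries, which gave most of the stromal cells. At least 3 Sertoli cell markers were in 59.6% (control) and 72.0% (*Sox17*-cKO) of the stromal cells of replicate 1. In replicate 2 the shares were 35.4% and 34.9%. For at least 3 germ cell markers they were 18.3% and 28.0% in replicate 1, against 1.23% and 10.1% in replicate 2. The Sertoli cell list summed to 1177 ± 342 CPM in fibroblasts and 1075 ± 263 CPM in myoid cells, and these levels overlapped those of the stromal cells. One gene of that list, *Ctsl*, had UMIs in 1258 of the 1368 stromal cells. Other genes of the list were in fewer cells, with *Aard* in 730, *Cst12* in 334 and *Cst9* in 325. Whether the 538 cells were mixed with Sertoli cells was not tested. Macrophage markers (7 genes) summed to 140, 76.0, 463 and 77.2 CPM, but 5 cells carried most of these UMIs. The endothelial list (7 genes) gave 138, 122, 125 and 172 CPM, the pericyte list (6 genes) 291, 115, 100 and 134 CPM, and the peritubular myoid list (6 genes) 1112, 1798, 2498 and 2019 CPM. Rete testis markers were at 12.9 CPM or less and blood markers at 6.24 CPM or less in each library. No doublet caller was run, and the part of mixed droplets or free RNA in these sums was not tested.

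At the edge of the rule, in values pooled over the libraries, the 101 cells with 3 of the 6 genes held 3627 CPM of the 6 together, and the 95 cells just outside, with 2 genes, held 707 CPM. *Pdgfra* was at 515 CPM in the former and 75.7 CPM in the latter. *Acta2*, smooth muscle actin, was at 4013 and 1749 CPM in these groups, against 402 CPM in the cells that led by 3 or more genes. The median cell had 3774 UMIs in the former and 7333 in the latter. The 475 cells that led by 1 gene held 12376 CPM of *Col1a1*, and the 626 cells with 3 or more genes that were level with the fibroblast or myoid set held 18418 CPM. The 499 cells that led by 3 or more genes held 2706 CPM. Control 2 and *Sox17*-cKO 2 gave most of the stromal cells, and the pooled values weight them accordingly. Another 203 cells were left out for *Cyp11a1* or the germ cell genes.

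Genes outside the rule were ranked by how far their level in the stromal cells exceeded that in the other classes. Among the 731 genes with a mean of at least 30 CPM over the 4 libraries and a higher CPM than both other classes in every library, the 25 with the largest ratio to the higher of those classes were listed. *Vcam1*, an adhesion receptor for leukocytes, had 239, 488, 386 and 484 CPM in the stromal cells, against means of 8.09 ± 5.94 CPM in fibroblasts and 75.2 ± 17.9 CPM in myoid cells. *Prlr*, the prolactin receptor gene, had 181, 234, 128 and 266 CPM, against 30.1 ± 16.1 and 12.8 ± 2.75 CPM. *Cxcl12*, a chemokine gene, had 267, 320, 217 and 312 CPM, against 42.6 ± 14.2 and 62.6 ± 3.60 CPM. None of these ranges met those of the other classes. *Clec3b*, which encodes the plasminogen-binding protein tetranectin, was less even, with 43.1, 331, 50.2 and 238 CPM against 11.4 ± 14.2 CPM in fibroblasts and 1.22 ± 1.01 CPM in myoid cells. *Entpd2*, an ectonucleotidase gene, had 45.2, 204, 105 and 161 CPM, against 24.8 ± 10.8 and 18.3 ± 6.1 CPM.

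The largest ratio, 103, belonged to *Fcgr2b*, the inhibitory Fc receptor gene best known from immune cells. Its levels were 40.9, 24.4, 41.1 and 18.0 CPM in the stromal cells, 0.155 ± 0.217 CPM in fibroblasts and 0.302 ± 0.362 CPM in myoid cells. Its 197 UMIs were spread over 126 stromal cells, at most 6 in any, and its mean was 30.3 ± 12.4 CPM (against 31.1 ± 11.7) without the 58 cells that held 3 or more markers of macrophages, endothelium, pericytes, Leydig cells or rete testis. *Cdh5*, which encodes VE-cadherin and is a defining endothelial gene, was at 62.5, 86.9, 116 and 117 CPM, against 9.94 ± 1.34 and 19.1 ± 3.01 CPM in the other classes. Its 803 UMIs lay in 504 cells, and 5 stromal cells held 3 or more of the 7 endothelial markers. Its mean without the 58 cells was 96.2 ± 36.0 CPM. In contrast, *Pf4*, *C1qa*, *C1qb*, *C1qc*, *Lyz2* and *Fcer1g*, all macrophage genes, appeared among the 25 and left the list without those 58 cells, as *Gsta2* did. *C1qa*, *C1qb* and *Lyz2* are among the markers by which those cells were left out, so their loss follows from that choice. The macrophage genes rested on few cells, whereas the 210 UMIs of *Gsta2* lay in 112 cells and its mean without the 58 cells was 28.3 ± 10.7 CPM, below the minimum of 30 CPM. Of the UMIs of *C1qa*, *C1qb*, *C1qc*, *Lyz2*, *Pf4* and *Fcer1g*, 93 of 97, 377 of 484, 297 of 303 and 363 of 396 lay in 1, 2, 1 and 1 cells of the libraries.

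The other genes with large ratios were *S100b* (60.6 ± 21.6 CPM), *Slfn5* (46.3 ± 25.9), *Efemp1* (71.8 ± 24.6), *Tspan8* (92.4 ± 37.4), *Avpr1a*, the vasopressin receptor gene (30.9 ± 17.1), *Adam12*, a metalloprotease gene (49.8 ± 8.96), *Apoc1* (46.1 ± 16.8), the amino acid transporter gene *Slc7a8* (63.2 ± 31.2), *Sned1* (71.1 ± 5.09), *Xdh*, the xanthine dehydrogenase gene (35.7 ± 5.33), and *Npr3*, the natriuretic peptide clearance receptor gene (41 ± 13.1 CPM). At the other end were the 10 genes with the lowest ratio to both other classes. *Tagln*, which encodes the actin-binding protein transgelin, stood at 304 ± 106 CPM against 4098 ± 981 CPM in fibroblasts and 3048 ± 754 CPM in myoid cells. *Itga8* was at 9.77 ± 3.34 CPM (118.5 ± 10.4 and 53.4 ± 2.32 CPM), and *Itga1* at 62.7 ± 5.80 CPM (306 ± 25.8 and 307 ± 40.1 CPM). *Cnn1* (17.9 ± 7.27 CPM), *Actg2* (24.4 ± 12.1), *Sytl2* (13.2 ± 6.94), *Cdh3* (6.07 ± 1.93), *Ctgf* (74.2 ± 13.6), *Hspb1* (111 ± 11.9) and *Cyr61* (118 ± 92.1 CPM) completed the lowest 10.

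**Figure D2:**
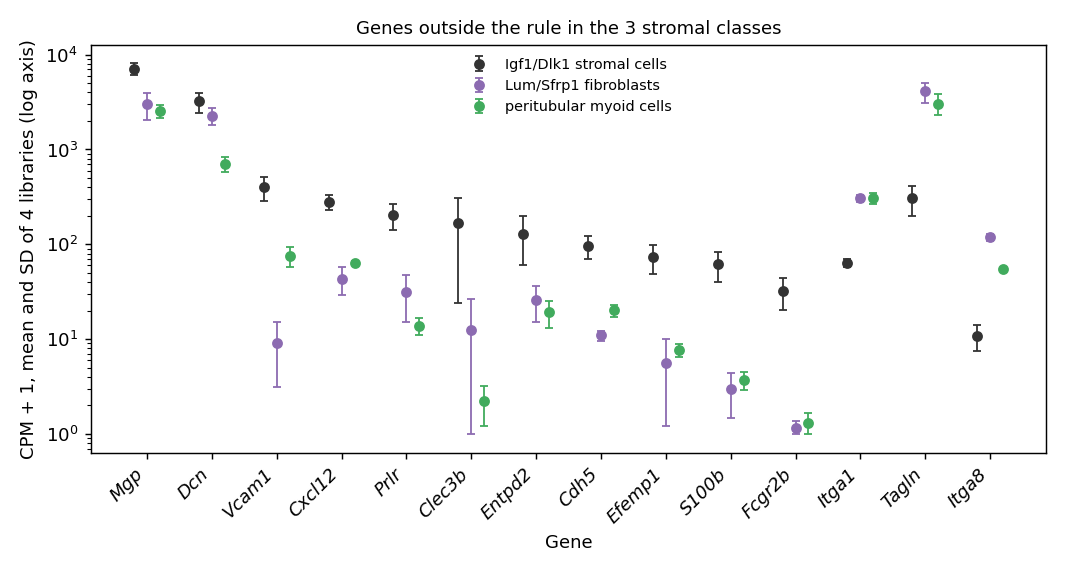
Mean and SD over 4 libraries of CPM + 1 (log axis) for 14 genes outside the rule, in stromal cells (black), fibroblasts (purple) and myoid cells (green). Bars that would pass below 0 CPM end at 1. *Fcgr2b* averages 31.1 CPM in the stromal cells against 0.155 and 0.302 CPM in the other classes, and *Tagln* 304 CPM against 4098 and 3048 CPM.

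Several matrix genes were among the 15 most abundant transcripts of the stromal cells. *Mgp*, an inhibitor of calcification, was at 5950, 7970, 7974 and 6489 CPM, against 2991 ± 957 and 2557 ± 415 CPM. *Dcn*, the decorin gene, was at 2495, 4233, 2795 and 3324 CPM, against 2275 ± 480 and 703 ± 127 CPM, and its lowest stromal value lay within the fibroblast range. *Col1a1* and *Sparc* were lower than in the fibroblasts and higher than in the myoid cells. *Col1a1* averaged 5601 ± 2460 CPM in the stromal cells, 22712 ± 8439 CPM in fibroblasts and 1848 ± 460 CPM in myoid cells, and *Sparc* 7249 ± 2256, 15465 ± 4085 and 5106 ± 841 CPM. *Col15a1* was higher than in both, at 500 ± 56.4 CPM against 270 ± 110 and 175 ± 40.6 CPM, and *Col23a1* stood at 47.3 ± 9.14 CPM against 1.44 ± 0.470 and 29.3 ± 7.44 CPM. The other most abundant transcripts were *Gm42418*, *Malat1*, *Tpt1*, *Eef1a1*, *Col3a1*, *Col1a2*, *Fth1*, *Fos*, *Tmsb4x*, *Actb* and *Egr1*, between 3133 and 26311 CPM on average. *Fos* (3968 ± 428 CPM) and *Egr1* (3133 ± 218 CPM) are genes that cells induce within minutes of a stimulus, and they stood at 4703 ± 226 and 3702 ± 302 CPM in the myoid cells.

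In genes of mesenchymal transcription factors the stromal cells lay close to the other classes, with exceptions. *Tcf21* (546 ± 63.8 CPM, against 463 ± 72.9 in fibroblasts and 676 ± 61.1 in myoid cells) and *Nr2f2* (543 ± 51.6 CPM, against 386 ± 49.7 and 725 ± 34.6) lay between the means of the other classes. *Osr1* differed, with 196, 234, 203 and 258 CPM against 23.4 ± 8.74 and 58.4 ± 7.70 CPM. *Lifr*, the receptor gene for leukaemia inhibitory factor, had 82.4 ± 21.0 CPM, against 18.0 ± 1.53 and 60.3 ± 5.80 CPM. *Nr5a1*, whose regulatory sequences drive the Cre, was at 8.62, 35.3, 36.5 and 63.0 CPM, and its range overlapped those of both classes (19.4 ± 9.72 and 25 ± 9.06 CPM). Of the 14 genes listed for steroid synthesis and Leydig cells, *Fdx1* (128 ± 13.4 CPM) and *Fdxr* (59.5 ± 14.2 CPM), which supply electrons to mitochondrial enzymes, were highest. *Insl3*, a peptide hormone gene of Leydig cells (15.1, 86.2, 27.4 and 19.1 CPM), and *Cyp17a1* (4.31, 12.2, 2.28 and 41.9 CPM) were low and uneven. The rule limits *Cyp11a1*, which favours low levels of Leydig cell genes.

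Of the insulin-like growth factor system, the ligand gene *Igf1* helped to define the class, and the genes of its binding proteins differed in how they compared with the other classes. *Igfbp7* had 1734 ± 203 CPM (808 ± 185 in fibroblasts, 1562 ± 140 in myoid cells), *Igfbp6* 1198 ± 559 CPM (1083 ± 340 and 1022 ± 287), and *Igfbp4* 568 ± 224 CPM (760 ± 295 and 74.7 ± 41.2). *Igfbp3* (83.6 ± 32.2 against 282 ± 89.5 CPM) and *Igfbp5* (96.1 ± 36.7 against 255 ± 78.2 CPM) were lower than in fibroblasts in mean. The receptor gene *Igf1r* was at 155 ± 36.2 CPM, close to the 153 ± 32.4 CPM of the fibroblasts.

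Hedgehog signals are known to reach the interstitium from Sertoli cells, and the 10 genes listed for their reception summed to 781 ± 112 CPM in the stromal cells, 755 ± 140 CPM in fibroblasts and 962 ± 97.8 CPM in myoid cells. The sums overlapped between the classes, and single genes differed. *Ptch1*, the receptor that is also a target, had 110, 98.0, 153 and 133 CPM, above the fibroblasts (21.9 ± 5.37 CPM) and below the myoid cells (500 ± 129 CPM). *Hhip*, a decoy receptor and target, had 19.3 ± 5.78 CPM, against 0.169 ± 0.339 and 139 ± 18.1 CPM. Among secreted factors, *Wnt6* had 58.2, 193, 135 and 192 CPM (14.7 ± 1.38 and 52.8 ± 16.5 CPM), *Kitl*, the KIT ligand gene, 98.4 ± 23.3 CPM (74.7 ± 15.9 and 36.0 ± 9.16), and *Csf1*, the macrophage growth factor gene, 72.2 ± 7.07 CPM (24.8 ± 2.79 and 81.4 ± 8.82). The complement protease gene *C1s1* was at 215 ± 49.4 CPM (29.2 ± 15.6 and 131 ± 25.6). *Aldh1a1*, a retinaldehyde dehydrogenase gene, was at 365 ± 44.2 CPM (171 ± 27.7 and 243 ± 21.4). The imprinted gene *Cdkn1c*, a cell cycle inhibitor, was at 111 ± 18.6 CPM (54.0 ± 12.3 and 17.2 ± 3.27).

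Within the class, cells that led the other gene sets by more genes had lower levels of collagen genes and higher levels of *Vcam1* and *Cxcl12*. Cells that led by 1 gene made up 37.6%, 35.1%, 51.2% and 31.0% of the stromal cells of the 4 libraries, and those that led by 3 or more made up 33.9%, 32.8%, 32.9% and 42.1%. *Col1a1* stood at 9537 ± 4557, 3911 ± 2450 and 2162 ± 861 CPM with a lead of 1, 2 and 3 or more genes (mean ± SD over 4 libraries). *Postn*, the periostin gene of collagen-rich matrix, stood at 155 ± 106.6, 47.9 ± 66.7 and 6.35 ± 1.41 CPM, and *Acta2*, smooth muscle actin, at 2014 ± 804, 1100 ± 429 and 454 ± 151 CPM. *Col14a1* stood at 254 ± 130, 85.4 ± 81.9 and 6.79 ± 4.78 CPM. These means were lower with each step of the lead. *Vcam1* was at 236 ± 88.5, 422 ± 132 and 592 ± 139 CPM, *Cxcl12* at 162 ± 34.9, 299 ± 48.7 and 430 ± 67.4 CPM, and *Osr1* at 152 ± 25.1, 259 ± 58.6 and 302 ± 45.2 CPM. *Dlk1* was at 225 ± 117, 274 ± 255 and 742 ± 421 CPM, which the rule favours, since *Dlk1* counts towards the lead. *Igf1* was level, at 2168 ± 383, 2339 ± 402 and 2321 ± 112 CPM. The lead counts genes of the rule, so this gradient is a description.

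**Figure D3:**
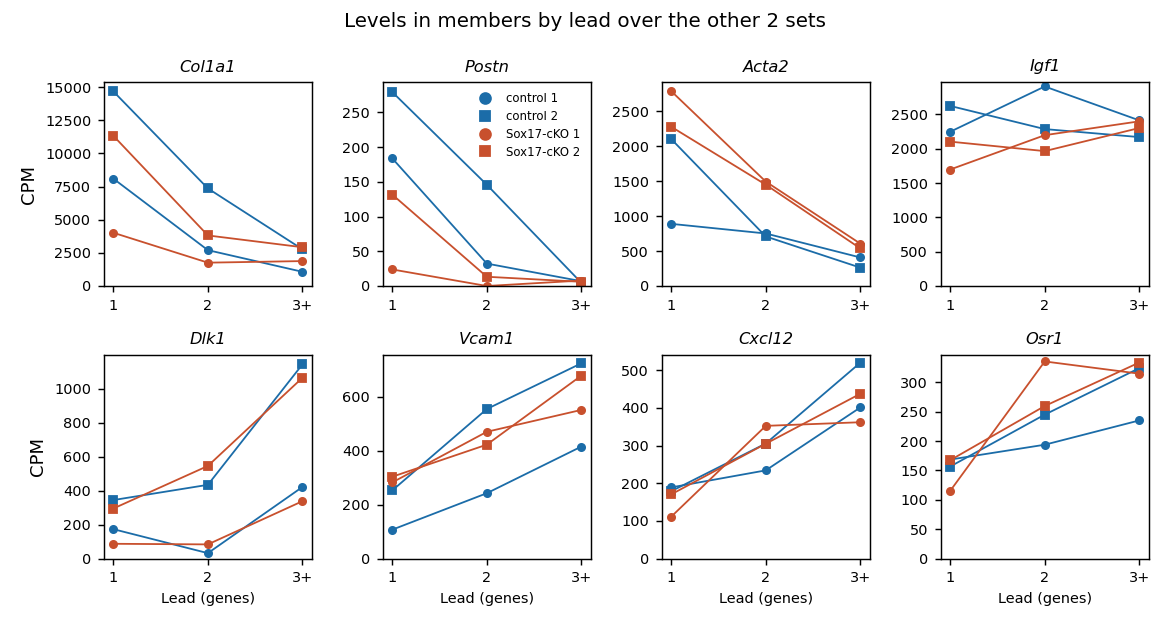
Level in CPM of 8 genes in stromal cells that led the fibroblast and myoid gene sets by 1, 2 or 3 and more genes, with 1 line per library. *Col1a1*, *Postn* and *Acta2* end lower than they start in every library, and *Vcam1*, *Cxcl12* and *Osr1* end higher.

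Every retained cell with at least 3000 UMIs was thinned to 3000 UMIs, and the rule was applied again. It chose 72, 606, 101 and 549 cells, which are not all among the stromal cells counted above. Those with a *Dlk1* UMI were 24, 230, 20 and 269, and those without it 48, 376, 81 and 280. *Meg3* (chromosome 12:109541001-109571726, + strand), a maternally expressed long non-coding RNA of the same imprinted region, was higher with *Dlk1* in 4 of 4 libraries, at 778 against 201, 1623 against 488, 1200 against 243 and 2009 against 748 CPM. *Igfbp3* followed, at 292 against 20.8, 117 against 60.3, 150 against 32.9 and 159 against 19 CPM. *Kitl* (161 against 62.7 CPM on average), *Lum* (217 against 51.0), *Igfbp4* (733 against 399) and *Peg3* (850 against 479) were higher in each library too. *Acta2* was lower, at 333 against 1104, 313 against 1477, 667 against 1794 and 804 against 3168 CPM, and *Myh11* (47.2 against 189 CPM) and *Tagln* (157 against 452 CPM) were lower in each library. *Myh11*, *Lum* and *Dlk1* itself belong to the rule, and the split is a description with no test.

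The share of stromal cells differed more between replicate numbers than between genotypes. They made up 1.78% (exact binomial 95% interval 1.46 to 2.14), 12.6% (11.7 to 13.5), 1.45% (1.16 to 1.80) and 9.36% (8.61 to 10.2) of the retained cells of control 1, control 2, *Sox17*-cKO 1 and *Sox17*-cKO 2. The intervals cover counting error only. The *Sox17*-cKO mean was 1.78 percentage points lower (5.41% against 7.19%), which an exact two-sided permutation test over the libraries did not separate (p = 0.667). Among the cells of the 3 stromal classes they made up 13.2%, 31.0%, 14.2% and 27.1%, and the *Sox17*-cKO mean was 1.45 points lower (p = 1, exact permutation). With 2 libraries against 2, that test cannot go below 0.3333. In each genotype the replicate 2 share was higher on both denominators. The removal of the interstitial supernatant can set these shares and its extent in each library was not measured. The pups, the dissociation and the capture of a library cannot be told apart in them.

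**Figure D4:**
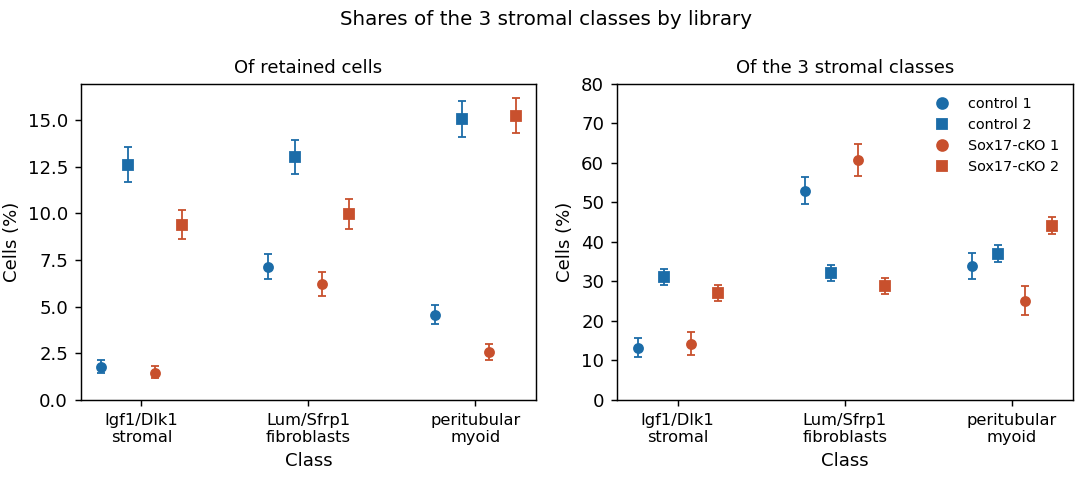
Share in percent of the 3 stromal classes among retained cells (left) and among the cells of the 3 classes (right), by library, with exact 95% binomial intervals. Both replicate 2 libraries (squares) lie above both replicate 1 libraries (circles) for the stromal cells, at 12.6% and 9.36% against 1.78% and 1.45% of retained cells.

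Between genotypes, hardly any gene of the stromal cells passed the test that left out the replicate number. Of 10393 genes tested, 1 was called by edgeR's quasi-likelihood test at an adjusted p under 0.05 (0.00962% of those tested), and DESeq2 called 1 as well. With the replicate number, which goes with the Cell Ranger version, as a block, edgeR called 19 (2 higher and 17 lower). At an unadjusted p under 0.05 there were 114 genes (1.10%), and the libraries of the genotypes did not overlap for 25.1% of genes (16.6% higher and 8.49% lower in *Sox17*-cKO). In simulated data of this depth the test recovered 64% of genes changed 4-fold and 12% of those changed 2-fold. The rule genes chose the cells, so their values between genotypes are descriptions. The log2 fold change of *Sox17*-cKO over control was −0.31 for *Igf1*, −0.06 for *Dlk1*, 0.03 for *Adamts5*, 0.30 for *Nrk*, 0.68 for *Plac8* and −0.43 for *Penk*, with −0.20 for *Pdgfra*. The libraries of the genotypes overlapped in *Dlk1*, *Adamts5*, *Penk* and *Pdgfra*. They did not in *Igf1*, *Nrk* and *Plac8*.

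The called gene was *Slpi* (chromosome 2:164354070-164389095, − strand), which encodes a secreted inhibitor of leukocyte protease. It stood at 108 and 64.0 CPM in the controls and at 0 in both *Sox17*-cKO libraries (adjusted p = 0.0344, edgeR quasi-likelihood test). Its pooled level was 68.2 CPM in the controls, and 3 UMIs over both *Sox17*-cKO libraries would be worth 0.902 CPM. These values give no lower bound on the fold change, since the UMIs lay in few cells. Of its 333 UMIs, 329 lay in 3 cells of the controls. These cells also held UMIs of *Upk3b*, *Msln*, *Dmkn*, *Krt19* and *Krt7*, genes of surface epithelia. Cells with such UMIs were not absent from *Sox17*-cKO, where 1 cell of *Sox17*-cKO 2 with 67 *Slpi* UMIs fell into the myoid class, and 2 cells of control 2 with 25 and 67 fell among the fibroblasts. The call ended in cells with under 10% mitochondrial UMIs (adjusted p = 0.0532) and without the tenth of cells with the most UMIs (adjusted p = 1). No gene was called with at least 4 genes of the set, under the limit on other types' marker UMIs, with thinning or without the 58 cells named above. Over the alternatives that could test it, its adjusted p ran from 6.51e-28 to 1 (edgeR or DESeq2).

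The genes next in order missed the threshold, each with an adjusted p of 1 by the edgeR test. *Gatm*, the enzyme of the first step of creatine synthesis, stood at 64.6 and 54.1 CPM in the controls and at 139 and 135 CPM in *Sox17*-cKO (log2 fold change 1.16, SE 0.28), with UMIs in 19.3%, 19.8%, 37.8% and 31.4% of the cells of control 1, control 2, *Sox17*-cKO 1 and *Sox17*-cKO 2. *Col14a1*, a fibril-associated collagen, stood at 213 and 176 CPM against 68.5 and 71.7 CPM (−1.53, SE 0.28), and *Lum*, a gene of the fibroblast set, at 196 and 233 against 98.1 and 87.3 CPM (−1.31, a description, since *Lum* helped to choose the cells). In these 3 genes the genotypes did not overlap, as in 25.1% of all genes tested. With the replicate number as a block, *Gatm* and *Col14a1* were called (edgeR adjusted p = 0.0122 and 0.00134), and *Col14a1* was also called with no filter (adjusted p = 0.00978) and without control 2 (adjusted p = 0.0452). The others chosen by smallest unadjusted p were *AC149090.1*, *Vsig1*, *Ren1* and *Clec12b* among the higher and *Sult1e1* and *Upk3b* among the lower, of which *Vsig1*, *Ren1*, *Sult1e1* and *Upk3b* were in fewer than 5% of the cells of each library. *Sult1e1* and *Upk3b* were called with the block (adjusted p = 0.0122 and 0.0212, edgeR) and with no filter (0.00806 and 0.0169), and *Sult1e1* also without control 1 (0.00294).

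The gene groups likewise held no called gene, and their counts are given beside the median of 0.01 over all genes. Of the 19 matrix glycoprotein genes tested, 1 had a positive log2 fold change (median −0.32), and 6 were lower without overlap (8.49% of all genes tested were), among them *Postn* (88.3 and 155 CPM against 16.0 and 50.6 CPM) and *Tnxb* (51.7 and 61.5 against 18.3 and 27.0 CPM). Of 13 collagen genes, 5 were positive (median −0.21), with *Col4a1* and *Col4a2* of the basement membrane on the positive side (0.31 and 0.32) and *Col1a1*, *Col1a2* and *Col3a1* on the negative (−0.62, −0.58 and −0.72). None of 16 immediate early genes was positive (median −0.21), and 1 of 12 heat shock genes was (−0.15). Of the marker lists of other cell types, the Sertoli cell list had 7 of 7 positive (0.44) and the germ cell list 6 of 7 (0.40). The macrophage list had 5 of 6 (0.94) and the endothelial list 2 of 3 (0.35). The Leydig list had 1 of 5 (−0.63), the pericyte list 1 of 6 (−0.40) and the peritubular myoid list 2 of 6 (−0.14). The part of such RNA in the other lists was not tested. The insulin-like growth factor list had 5 of 12 positive (−0.07), the mesenchymal progenitor list 9 of 17 (0.00), the hedgehog list 4 of 10 (−0.06), the Wnt list 6 of 11 (0.06), the TGF-beta and BMP list 9 of 17 (0.02) and the retinoid list 2 of 10 (−0.16). The cell cycle list had 10 of 16 positive (0.35), led by *Top2a* (77.6, 41.4, 235 and 78.6 CPM), which was highest in *Sox17*-cKO 1. Its 549 UMIs lay in 236 stromal cells, with 40.6% of them in 10 cells and 32 in a single cell.

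The genotype differences were next compared with those in the fibroblasts and myoid cells of the same libraries. *Gatm* was higher in *Sox17*-cKO without overlap in these classes too, at 67.8 and 50.6 against 79.1 and 106 CPM in the fibroblasts and 49.6 and 43.2 against 57.3 and 82.8 CPM in the myoid cells. *AC149090.1* was at 12.5 and 16.0 against 39.6 and 35.9 CPM in the fibroblasts and 17.3 and 12.2 against 43.0 and 29.4 CPM in the myoid cells. Neither interaction was called for these genes. The interaction asks whether the log2 fold change of *Sox17*-cKO over control differs between the stromal cells and the other class. Against the fibroblasts, 3 of 11950 genes were called (0.0251%), all with the more negative change in the stromal cells, and 362 had an unadjusted p under 0.05. In the fibroblasts *Col14a1* was also lower in *Sox17*-cKO without overlap, at 635 and 625 CPM in the controls and 560 and 574 CPM in *Sox17*-cKO, and the changes differed by −1.27 (SE 0.18, adjusted p = 0.0293, edgeR). *Postn* was at 368 and 518 against 296 and 459 CPM in the fibroblasts, and the changes differed by −1.49 (SE 0.23, adjusted p = 0.0428, edgeR). *Cxcl2*, a chemokine gene, rested on few cells, since 122 of its 126 UMIs in control 1 lay in 1 cell. *Postn* had UMIs in 11%, 12.1%, 3.66% and 7.24% and *Col14a1* in 15.6%, 19.3%, 13.4% and 13.3% of the stromal cells of control 1, control 2, *Sox17*-cKO 1 and *Sox17*-cKO 2.

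*Postn* and *Col14a1* were also lower in cells with a larger lead, and the mixture of fibroblast genes differed between libraries. The share of stromal cells with 2 or more genes of the fibroblast set was 34.9%, 62.6%, 52.4% and 49.0%, which overlapped between genotypes. The summed level of the 6 genes of that set did not overlap, at 1170 and 1454 CPM in the controls and 746 and 906 CPM in *Sox17*-cKO. In the fibroblasts the sum was 4465 and 5557 against 4787 and 5289 CPM. On the myoid side, 47.7% and 72.4% of the stromal cells of the controls and 75.6% and 75.0% of those of *Sox17*-cKO had 2 or more genes of the myoid set, whose summed level was 851 and 992 against 1082 and 1305 CPM, both without overlap. The genes of both sets helped to choose the cells, so these values are descriptions. Of all genes tested, 25.1% did not overlap between genotypes. The part of either mixture in the differences was not tested. With each cell thinned to 3000 UMIs before selection, neither gene was called, at −0.54 for *Postn* and −0.35 for *Col14a1*, and neither was called without the tenth of cells with the most UMIs. *Postn* was also not called with DESeq2 or without control 2 (−1.26), and both turned in the few cells left under the limit on other types' marker UMIs.

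Against the myoid cells, 26 of 11697 genes were called (0.222%), 8 with the more positive change in the stromal cells (0.0684%) and 18 with the more negative one (0.154%). The fibrillar collagens were among the latter. *Col1a1* was at 4473 and 8829 CPM in the controls and 3092 and 6010 CPM in *Sox17*-cKO in the stromal cells, against 1321 and 2171 and then 1611 and 2291 CPM in the myoid cells (difference −0.73, SE 0.11, adjusted p = 3.36e-05, edgeR). The stromal values overlapped between genotypes, since control 1 lay below *Sox17*-cKO 2. *Col3a1* was at 5869 and 7915 against 3943 and 4901 CPM in the stromal cells and at 1086 and 1351 against 1259 and 1215 CPM in the myoid cells (−0.67, SE 0.10, adjusted p = 8.66e-05, edgeR), without overlap in the stromal cells. *Col1a2* followed at −0.63 (adjusted p = 0.000498, edgeR), and *Crip1* at −2.24 with 200 and 156 against 47.9 and 89.4 CPM. *Slpi*, the remaining gene of the first 5, rested on the cells described above, including the myoid cell of *Sox17*-cKO 2. *Col1a1*, *Col1a2* and *Col3a1* were not called without control 2, without *Sox17*-cKO 1, with thinning or with DESeq2, and turned under the limit on other types' marker UMIs. *Crip1* was not called with DESeq2, without control 2, with at least 4 genes of the set or without the 58 cells named above, and turned without the tenth of cells with the most UMIs (0.084) and with thinning (0.34). DESeq2 called 0 genes of this comparison. Without control 2 a single gene was called.

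**Figure D5:**
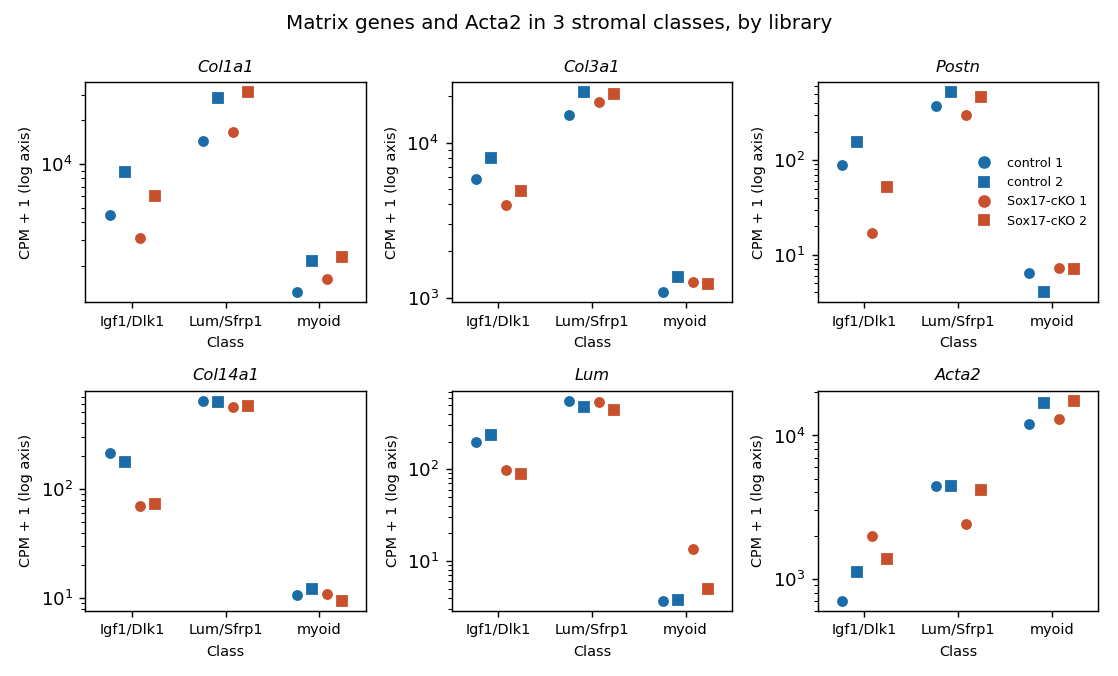
CPM + 1 (log axis) of 5 matrix genes and *Acta2* by library in *Igf1*/*Dlk1* stromal cells, *Lum*/*Sfrp1* fibroblasts and myoid cells. In the stromal cells *Postn* is at 88.3 and 155 CPM in the controls and 16.0 and 50.6 CPM in *Sox17*-cKO, whereas in the fibroblasts all 4 libraries lie between 296 and 518 CPM.

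More genes were called between replicate numbers than between genotypes. Between replicate 2 and replicate 1 libraries, 50 of 10393 genes were called (0.481%), 20 higher (0.192%) and 30 lower (0.289%) in replicate 2, with 2070 (19.9%) at an unadjusted p under 0.05 and 51.7% without overlap. One of these was *Dlk1* (log2 fold change 1.79), which helped to choose the cells, so its value is a description. Its neighbour *Meg3*, which the rule did not use, was at 371 and 418 CPM in replicate 1 and 1194 and 1467 CPM in replicate 2 (1.77, adjusted p = 0.0159, edgeR). *Clec3b* was at 43.1 and 50.2 against 331 and 238 CPM (2.64), *Ifi204*, an interferon-inducible gene, at 0 and 9.13 against 160 and 138 CPM (5.07), and *Igfbp6* at 620 and 819 against 1683 and 1671 CPM (1.24, adjusted p = 0.0418, edgeR). Of the 15 imprinted genes tested, 12 had a positive value (median 0.55), 9 were higher without overlap (25.9% of all genes were) and *Meg3* was called. *Aldoa*, *Arf5*, *Tecr* and *Gabarap* completed the higher genes named, between 1.13 and 1.41.

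The lower genes were led by *Hist1h2aa* (58.2 and 86.7 CPM in replicate 1, 2.04 and 3.46 CPM in replicate 2, −4.73), *Cox8c*, *Ldhc*, *Meig1*, *Fabp9*, *Hormad1* and *Rpl39l*, which are best known from male germ cells, and by *Hmgb2* (431 and 548 against 153 and 144 CPM). The cell cycle list had 4 of 16 positive (median −1.15) with *Cenpf* called (−2.52, adjusted p = 0.0418, edgeR). The 411 *Cenpf* UMIs lay in 168 stromal cells, with 48.9% of them in 10 cells and 56 in a single cell. Of the germ cell markers 0 of 7 had a positive value, with summed levels of 416 and 415 CPM in replicate 1 against 106.8 and 245 CPM in replicate 2, and their part in these differences was not tested. The replicate 1 and 2 tables also carry different Cell Ranger versions (6.0.2 and 6.1.2), which cannot be told apart from the replicate number. Without control 2, or without *Sox17*-cKO 2, no gene was called. Cells with UMIs of both *Mki67* and *Top2a* were 2 of 109, 15 of 652, 4 of 82 and 10 of 525 stromal cells (1.83%, 2.30%, 4.88% and 1.90%). Among the 72, 606, 101 and 549 cells that the rule chose again after thinning, they were 3, 5, 2 and 5 (4.17%, 0.825%, 1.98% and 0.911%).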

How the data were processed

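Single-cell RNA was captured from 2 control and 2 *Sox17*-cKO testis libraries at P14 with 10x Genomics 3′ chemistry, each aimed at 5000 cells. The authors made the UMI counts with Cell Ranger (6.0.2 for replicate 1, 6.1.2 for replicate 2) against mm10, and deposited them as whole numbers per gene and barcode, not normalized. Of 31053 identifiers, 99.9% were found in GENCODE vM21 (GRCm38), which gave the positions.

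Cells with 1000 to 4500 detected genes were retained. The study also removed cells above 1% mitochondrial UMIs, a step left out here (the stromal cells had library medians of 2.95% to 4.63%). The members, the gene lists and the tests were chosen with earlier results of these data known. No doublet caller was run. The study had discarded a supernatant with interstitial cells before capture. UMIs of the chosen cells were summed per library and tested with edgeR 4.0.16 (TMM, filterByExpr, quasi-likelihood F test, two-sided, Benjamini-Hochberg over all genes tested, threshold 0.05), in R 4.3.3 with limma 3.58.1. Genotypes and replicate numbers were compared with 2 libraries against 2, and the interaction fits had the library as a factor. The SE of a log2 fold change was its size divided by the square root of F. Levels in CPM used the summed UMIs of a class, and 3′ UMIs were not divided by gene length. Shares were given exact Clopper-Pearson intervals at 95% and exact permutation tests (Python 3.11.15, SciPy 1.17.1). The alternatives were DESeq2 1.42.0, other size factors, no filter, stricter choices of cells and libraries left out. On simulated data with 200 changed genes the steps recovered 38% (genotype), 46% (replicate), 52.5% and 56% (interactions) with 2, 0, 6 and 8 false calls.

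The genes named were the rule genes and *Pdgfra*, members of the fixed lists, the 25 highest and 10 lowest ratios between classes, the 15 highest levels, and the genes with the smallest p of each test (5 in each direction between genotypes, 8 between replicate numbers, up to 5 per interaction). The epithelial genes given beside *Slpi* were chosen after their values were seen. The same-numbered libraries of the genotypes deviated together (r = 0.350 over 10393 genes), and they share a Cell Ranger version. The median absolute log2 difference was 0.428 between libraries of the same genotype and 0.285 between same-numbered libraries. With 2 pairs this does not establish a pairing, so the fit without the block is given first and the blocked count beside it. Without the block, differences between replicate numbers count in the spread within genotypes. In that fit 1.10% of genes had an unadjusted p under 0.05, a smaller share than the threshold itself, so it can miss changes.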

Additional observations from a re-analysis of the deposited data

Results flagged for a closer look

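The genotype change (log2 fold change of *Sox17*-cKO over control) in the stromal cells differed from that in another stromal class for 3 genes against the fibroblasts and 26 against the peritubular myoid cells, by the edgeR interaction test at an adjusted p under 0.05. Against the fibroblasts the differences were −1.27 for *Col14a1*, −1.49 for *Postn* and −6.07 for *Cxcl2*.

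Against the myoid cells, the called genes with the more negative change in the stromal cells included several of the matrix. Of 14 collagen genes tested, 3 were called, 2 had a positive difference and the median was −0.56, and of 19 matrix glycoprotein genes 2 were called, 4 were positive and the median was −0.37, against a median of 0.01 and 0.154% called in this direction over all genes. The differences of single genes were −0.73 for *Col1a1*, −0.63 for *Col1a2*, −0.67 for *Col3a1*, −2.41 for *Postn*, −2.37 for *Lum* and −1.04 for *Fbln1*. *Igf1* differed by −0.54 and *Fst*, the gene of the activin antagonist follistatin, by −2.89. The *Fst* levels of the stromal cells overlapped between genotypes, and its levels in the myoid cells were low (values under Other observations). The differences were −0.90 for *Cyr61*, −0.76 for *Fosb*, −0.84 for *Icam1*, −1.42 for *Mmp23*, −2.24 for *Crip1*, −1.30 for *Crip2* and −2.01 for *Tnfsf9*.

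Among the called genes with the more positive change were *Acta2* (0.77), *Myh11* (0.69), *Fhl2* (0.57) and *Asb2* (1.52). Of the 6 peritubular myoid markers, 2 were called and the other 4 had negative differences (median −0.04), against 0.0684% of all genes called with the more positive change. The *Acta2* levels of the stromal cells were 702 and 1115 CPM in the controls and 1978 and 1365 CPM in *Sox17*-cKO. Cells with 20 or more *Acta2* UMIs, 2 of 109, 45 of 652, 17 of 82 and 55 of 525, held 92 of 326, 3271 of 4926, 659 of 867 and 2423 of 3940 of its UMIs. The 6 myoid markers summed to 1112 and 1798 CPM in the controls and 2498 and 2019 CPM in *Sox17*-cKO, and the share of stromal cells with 2 or more genes of the myoid set was 47.7% and 72.4% against 75.6% and 75.0%. The genes of the myoid set helped to choose the cells, and the part of these values in the differences was not tested. *Igf1*, *Lum* and *Myh11* helped to choose the cells, so their differences are descriptions and support no statement about the class.

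For most of the genes above, the number of cells behind the difference is not given here. The remaining differences rested on few cells. They were −16.71 for *Slpi*, −7.32 for *Upk3b* and −5.54 for *Dmkn*, of which *Slpi* and *Upk3b* had UMIs in 1 stromal cell of control 1 and 5 of control 2. In *Sox17*-cKO, *Slpi* had none and *Upk3b* had 1 UMI in each library. On the myoid side, 1 cell of *Sox17*-cKO 2 held 67 *Slpi*, 14 *Upk3b* and 10 *Dmkn* UMIs. The differences were 3.33 for *C1qc*, 3.74 for *Pf4* and 3.56 for *Lyz2*, and in *Sox17*-cKO 2 a single cell held 57 of 62, 117 of 118 and 30 of 34 of their UMIs. *Cyp17a1* differed by 2.56, with 121 UMIs in 12 cells of *Sox17*-cKO 2, 68 of them in 1 cell. Fitted values of genes at 0 UMIs in a group depend on the prior count and are no bound. With 2 libraries per group, no library could be tested as standing apart from its group.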

How the results depend on the processing

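Beside the single gene called between genotypes, no filter gave 12 genes, and leaving out a library gave 3 to 19. The count was 0 at under 10% mitochondrial UMIs, with at least 4 genes of the set, without cells with 3 or more UMIs of other types' markers, without the tenth of cells with the most UMIs, with thinning, and without the 58 cells with 3 or more markers of 1 other type (macrophage, endothelium, pericyte, Leydig cell or rete testis). DESeq2, RLE size factors and total UMIs gave 1. With the replicate number as a block (replicate block), 19 genes were called, 2 higher and 17 lower.

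Against the 50 genes called between replicate numbers, DESeq2 gave 209, RLE 189, no filter 976 (580 higher and 396 lower, against 20 and 30, with the median of all genes at 0.17), total UMIs 546, the mitochondrial limit 257, at least 4 genes 409, the marker UMI limit 6, the tenth left out 286, thinning 219, the 58 cells left out 291, genotype as a covariate 524, and libraries left out 0 to 431. The count without a library fell to 0 for control 2 and for *Sox17*-cKO 2.

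The 3 interactions with the fibroblasts became 2 with DESeq2, 6 with RLE, 44 with no filter (20 higher and 24 lower, against 0 and 3), 6 with total UMIs, 7 at the mitochondrial limit, 6 with at least 4 genes, 6 under the marker UMI limit, 8 without the tenth, 7 with thinning, 7 without the 58 cells, and 14 to 51 with a library left out. The 26 with the myoid cells became 0 with DESeq2, 49 with no filter, 17 with total UMIs, 17 with at least 4 genes, 0 under the marker UMI limit, 12 without the tenth, 8 with thinning, and 1 to 55 with a library left out. The marker UMI limit removed 104 of 109, 595 of 652, 81 of 82 and 482 of 525 cells, so its values rest on few cells. For the other changes the cause was not tested. The genes called against the fibroblasts changed as well as their number. With thinning, all of them had the more positive change in the stromal cells, among them *Acta2* (1.35) and *Tagln* (1.16). Without the tenth, all but *Col6a5* (−1.62) did, among them *Acta2* (1.54). *Col14a1*, *Postn* and *Cxcl2* were called in neither of these settings.

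The difference in share among retained cells ran from −7.19 to 3.63 points when a library was left out, and was positive without control 2 (3.63) and without *Sox17*-cKO 1 (2.18). Among the stromal classes it ran from −10.4 to 7.47, positive without control 2 (7.47), without *Sox17*-cKO 1 (5.01) and with thinning (2.47).

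Of 648 values of named genes under alternatives, 539 kept direction and side of the threshold, 70 lost the call, 12 gained one and 27 turned, none of these called under the alternative that turned it. Between genotypes *Dlk1* turned with total UMIs (0.014), without control 2 (0.94), without *Sox17*-cKO 1 (0.60, the range with a library left out being −1.49 to 0.94) and under the marker UMI limit (0.22). *Adamts5* turned without control 1 (−0.15), without *Sox17*-cKO 2 (−0.30, range −0.30 to 0.30), under the marker UMI limit (−0.37) and without the tenth (−0.0071), and *Penk* under the marker UMI limit (0.14). Between replicate numbers *Igf1* turned without control 2 (−0.06), without *Sox17*-cKO 1 (−0.14, range −0.14 to 0.28), with at least 4 genes (−0.017), under the marker UMI limit (−0.39), without the tenth (−0.058) and without the 58 cells (−0.014). *Plac8* turned without control 1 (−0.032, range −0.032 to 1.31), and under the marker UMI limit *Clec3b* (−0.37), *Penk* (−0.78), *Pdgfra* (0.44) and *Adamts5* (−0.25) turned. In the interactions the marker UMI limit turned *Col14a1* (2.39) and *Postn* (3.69) against the fibroblasts and *Col1a1* (0.69), *Col3a1* (1.03) and *Col1a2* (0.76) against the myoid cells, and *Crip1* turned without the tenth (0.084) and with thinning (0.34). Leaving out the 58 cells and total UMIs for single genes were chosen after seeing the data. No alternative chosen earlier was left out. Depth limits the replicate 1 libraries most, where 1 UMI of the stromal cells is 2.15 or 2.28 CPM.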

Other observations

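Several genes of secreted factors and their receptors had levels unlike those of one or both other classes. The TGF-beta co-receptor gene *Tgfbr3* stood at 162 and 240 CPM in the control libraries and 146 and 256 CPM in *Sox17*-cKO, against means of 73.9 ± 14.1 CPM in fibroblasts and 183 ± 28.3 CPM in myoid cells (SD, n = 4 libraries). In the same order *Fst* stood at 21.5, 35.3, 22.8 and 20.1 CPM, against 6.01 ± 3.28 and 2.54 ± 2.08 CPM. *Fgf7*, a growth factor gene of mesenchyme, stood at 19.4, 13.4, 27.4 and 16.6 CPM, against 5.65 ± 1.01 and 2.97 ± 1.05 CPM. *Vegfd* was lower than in the fibroblasts, at 23.7, 72.9, 84.4 and 40.2 CPM against 279 ± 40.0 CPM. These are descriptions of the chosen classes.

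Of the Notch list, *Hes1* was at 155 and 135 CPM in the replicate 1 libraries and 76.3 and 51.3 CPM in the replicate 2 libraries, a difference that was not called (log2 fold change −1.15, adjusted p = 0.0757, edgeR). The antigen gene *Ly6a* was at 2.15, 64.7, 22.8 and 17.0 CPM in the stromal cells and at 0.192 ± 0.228 and 0.125 ± 0.156 CPM in the other classes. Its 346 UMIs lay in 95 stromal cells, with 54.3% of them in 10 cells and 41 in a single cell.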
